A study of Olea europaea with 12 samples.

Results

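Expansins, xyloglucan endotransglucosylase/hydrolases (XTHs) and endoglucanases are 3 gene families that remodel the plant cell wall, and they are described here in the ripening flesh of the olive. Genes were taken by their description in the deposited table (expansin, xyloglucan endotransglucosylase or endoglucanase), and a gene was kept where 3 or more of the 12 libraries gave it 1 FPKM or more. FPKM is the number of fragments of a gene scaled for its length and for the library total. By description 128 of the 51008 listed genes matched, and 45 of these passed the filter on low values. The 45 were 15 of 44 expansins, 22 of 52 XTHs and 8 of 32 endoglucanases. Another 83 matching genes were left out, of which 26 were listed at 0 in every library. No left-out gene exceeded 1.33 FPKM in any library.

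The libraries came from fruit mesocarp, the oil-bearing flesh, of Olea europaea trees of the Greek oil cultivar Koroneiki grown in a field in Western Greece. The groups are 4 fruit ages in weeks after flowering (WAF), namely 17, 21, 26 and 30 WAF. Library names begin with Sep, Oct, Nov and Dec in that order of age. Read as months, they give each age its own month in the field, so fruit age and season cannot be told apart. Each age has 3 libraries, called A, B and C. All groups share the cultivar and the field, and no treatment is given in the labels. The labels do not say whether the 3 samples of an age came from separate trees, so the p-values rest on a spread between samples that may be technical. The library totals were 790578 to 845585 FPKM. Genes above 0 numbered 36754 in library C of 30 WAF and 38351 to 39524 in the rest. Read numbers are unknown, and no detection limit is given.

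Xyloglucan is a hemicellulose that coats and links cellulose fibres in the primary wall of plants such as olive. Expansins loosen wall polymers without cutting them, XTHs cut xyloglucan chains and rejoin them to other chains or to water, and endoglucanases cut beta-1,4-linked glucan chains. Together the families are known for wall loosening during growth and for softening during fruit ripening. Members keep the names of the file, most of which end in "-like" or begin with "probable". Most of the numbers follow Arabidopsis names, and a name does not establish a gene's function. Cell wall, apoplast or extracellular terms stood in the file's cellular component annotation for 31 of the 35 members that had such annotation, and none of the 4 annotated endoglucanases carried one. Over the genes tested, 182 of 9680 with a component annotation (1.9%) carried such a term.

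The 3 families took different courses over the season. The summed FPKM of the 15 expansins at 17, 21, 26 and 30 WAF averaged 712 ± 23.2, 782 ± 14.6, 2222 ± 24.04 and 4703 ± 58.0 (SD, n = 3 per age). The summed FPKM of the 22 XTHs averaged 644 ± 8.26, 453 ± 2.43, 445 ± 0.997 and 434 ± 0.934 at the same ages. The 8 endoglucanases summed to 309.7 ± 7.11, 221 ± 6.98, 256 ± 2.78 and 237 ± 3.19 FPKM. Expansin sums were thus the only ones of the 3 to climb after 21 WAF in each interval, while XTH and endoglucanase sums had their highest mean at 17 WAF. These sums were not tested, and each is dominated by a few genes, as shown next.

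**Figure D1:**
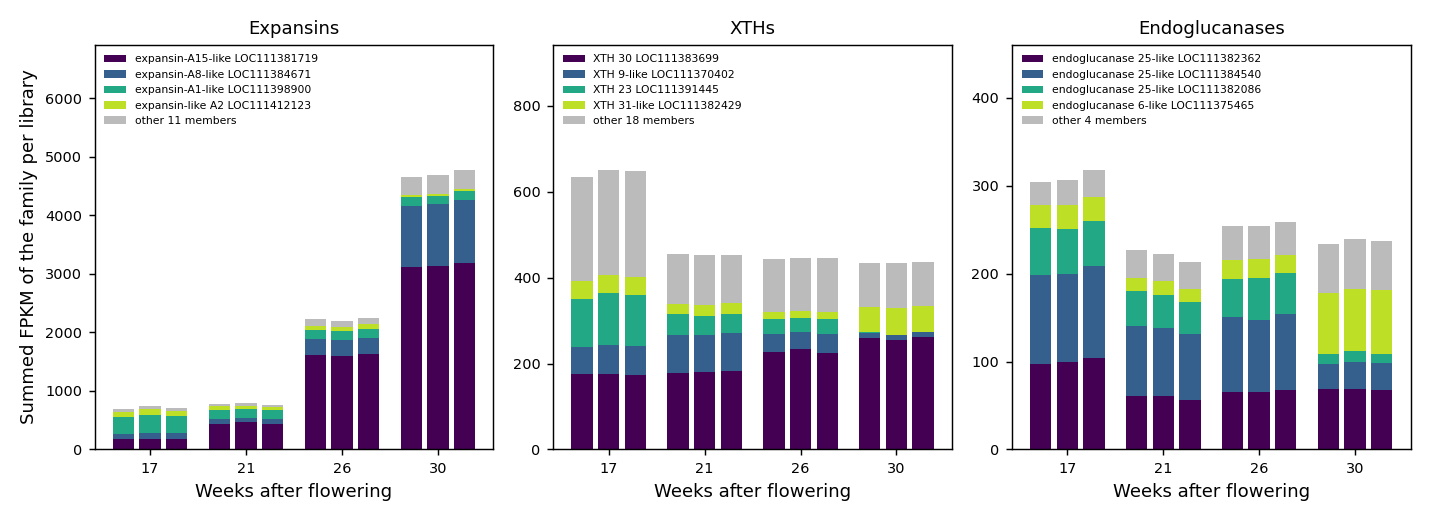
Summed FPKM per library (y axis, linear) against fruit age in weeks after flowering (x axis, 3 bars per age for libraries A, B and C), with 1 panel per family and its own scale. Bars are stacked by the 4 members with the highest mean and the remaining members in grey; the expansin sums lie between 4657 and 4768 FPKM at 30 WAF, mostly from 1 expansin-A15-like gene.

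Single genes changed places within these sums. At 17 WAF the expansin-A1-like gene LOC111398900 supplied 41.1% of the expansin sum and the expansin-A15-like gene LOC111381719 supplied 24.9%. The share of LOC111381719 was 57.3% at 21 WAF, 72.8% at 26 WAF and 66.8% at 30 WAF. The share of LOC111398900 was 19.99%, 7.12% and 3.09% at those 3 later ages. Among XTHs the XTH 30 gene LOC111383699 led at all 4 ages, with 27.2%, 39.7%, 51.3% and 59.4% of the XTH sum. Among endoglucanases the endoglucanase 25-like genes LOC111384540 and LOC111382362 had nearly equal shares at 17 WAF, 32.9% and 32.5%, and their libraries overlapped. At 30 WAF the endoglucanase 6-like gene LOC111375465 had 30.0% and LOC111382362 had 29.0%.

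Nearly every member varied with age, as did most genes of the fruit. Each gene was fitted with limma on log2(FPKM + 1), on which scale the change of low genes is understated, and p-values were adjusted over all 26131 genes that passed the filter. In the moderated F test over the 4 ages 44 of the 45 members passed (adjusted p under 0.05), against a background of 89.9% of the genes tested. The exception was the XTH 33 gene LOC111373347 (limma F test, adjusted p = 0.078), which never exceeded 1.29 FPKM. Because members had to reach 1 FPKM in 3 libraries, a member could enter through the age at which it was high, and the counts below describe the 45 and not the whole families. In a bulk sample, fewer cells of a type and less RNA per cell cannot be told apart.

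Between 30 and 17 WAF the members went in both directions. At 30 WAF 22 members exceeded and 20 were under their level at 17 WAF (limma, adjusted p under 0.05), and 3 did not pass. The background for this comparison was 34.9% of genes higher and 38.9% lower, 73.9% in either direction. The median log2 change of the members was -0.02, beside -0.03 for all genes tested, but the sizes differed. Of the 45 members 27 (60%) were called and changed by at least 1 on the log2 scale, against 15% of the genes tested, and the median size was 1.37 in members and 0.37 over all genes.

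The families differed in their counts. Between 30 and 17 WAF 10 expansins rose and 4 fell (median log2 change 1.66). Of the XTHs 8 were higher and 12 lower at 30 WAF (median -0.50). Of the endoglucanases 4 were higher and 4 lower (median -0.10). In percent, higher and lower members were 66.7% and 26.7% of expansins, 36.4% and 54.5% of XTHs, and 50% and 50% of endoglucanases. The background was 34.9% of genes higher and 38.9% lower. Some members in these counts passed the filter only through 30 WAF or only through 17 WAF, which fixed the direction of any call. They are the expansins LOC111385342, LOC111393522 and LOC111375950, the XTH 22-like gene LOC111387288 and the endoglucanase 11-like gene LOC111374207. The highest mean was at 30 WAF for 10 of the 15 expansins, 6 of the 22 XTHs and 3 of the 8 endoglucanases, and at 17 WAF for 4, 9 and 4 of them. How often all genes tested had their highest mean at these ages was not computed, so the peak counts have no background.

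**Figure D2:**
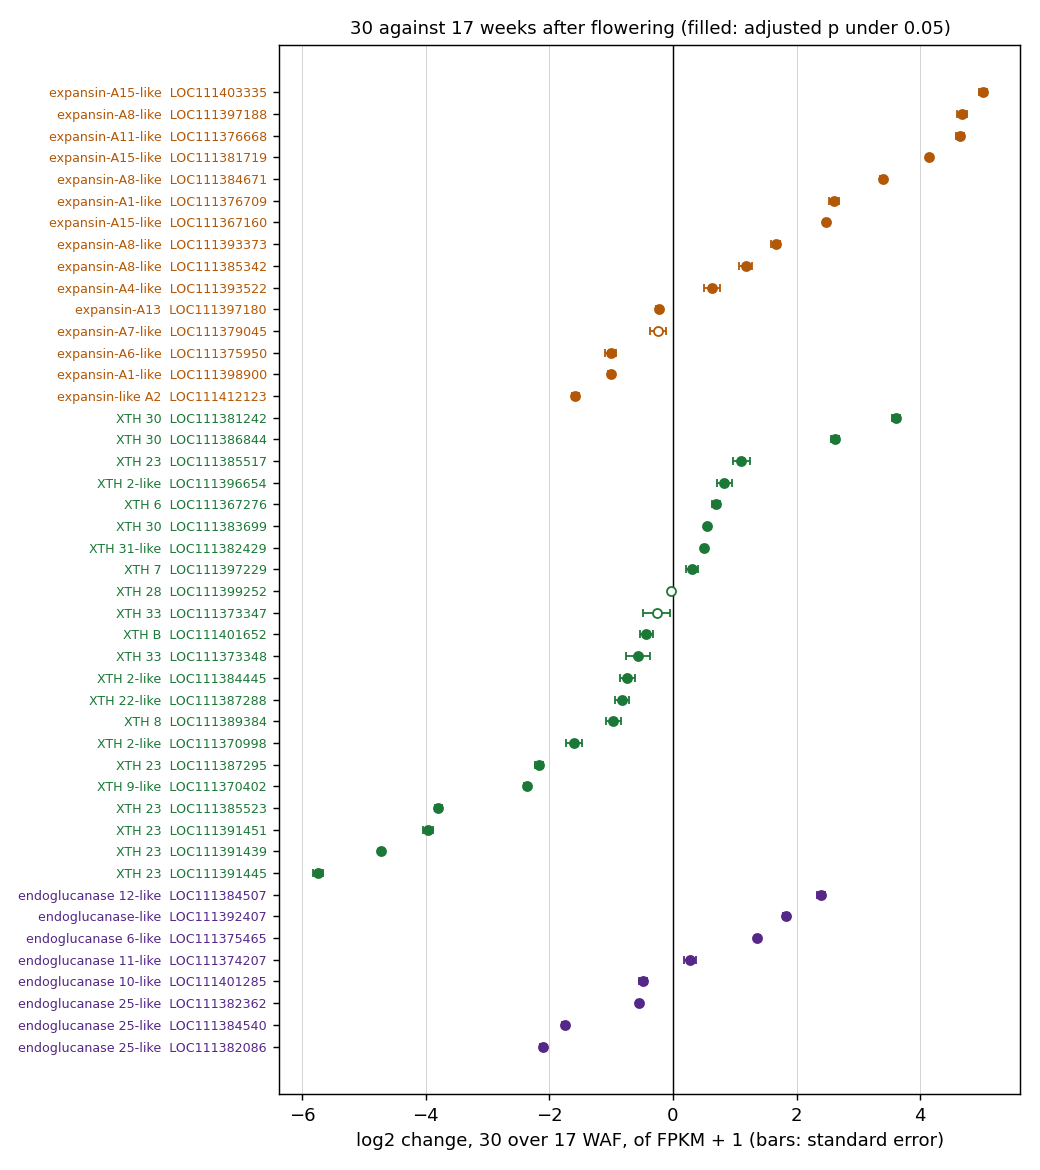
Log2 change of FPKM + 1 between 30 and 17 WAF (x axis; above 0 means higher at 30 WAF) for each of the 45 members, with bars for the standard error of the limma fit. Brown marks expansins, green XTHs and purple endoglucanases; filled points passed an adjusted p of 0.05 and 3 open points did not. Changes run from -5.74 in an XTH 23 gene to 5.02 in an expansin-A15-like gene.

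The intervals in between had their own balance. From 17 to 21 WAF 10 members rose and 26 fell, against a background of 22.2% of genes higher and 35.9% lower at 21 WAF (58.1% in either direction). From 21 to 26 WAF 23 members rose and 9 fell, against 23.2% and 32.9% (56.1% in either direction). From 26 to 30 WAF 23 rose and 19 fell, against 42% and 24.3% (66.3% in either direction). Called changes of at least 1 on the log2 scale numbered 13 members for 21 with 17 WAF (background 4.06%), 10 for 26 with 21 WAF (background 3.16%) and 23 for 30 with 26 WAF (background 7.68%). With median-of-ratios scaling the share of higher genes among all genes called moved from 38.2% to 49.6% for 21 with 17 WAF, from 41.3% to 51.2% for 26 with 21 WAF and from 63.4% to 51.3% for 30 with 26 WAF, while no called member turned direction.

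By family, 4 expansins rose and 8 fell between 17 and 21 WAF, 9 rose and 1 fell between 21 and 26 WAF, and 11 rose and 4 fell between 26 and 30 WAF. Among the first 4 was expansin-A7-like LOC111379045 (limma, adjusted p = 0.043), which never exceeded 1.36 FPKM. Its call is lost with a pseudocount of 0.1, with no filter, with TPM scaling and with the library letter as a block. The single expansin that fell between 21 and 26 WAF was expansin-A13, and that call is lost with median-of-ratios scaling (limma, adjusted p = 0.071) and without library B of 21 WAF (adjusted p = 0.063). XTHs were split in each interval, with 5 higher and 12 lower, then 8 and 8, then 8 and 12. Of the endoglucanases 6 fell and 1 rose first, 6 rose and none fell between 21 and 26 WAF, and 4 rose and 3 fell last.

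Members also fell into recurrent courses. A rise in all 3 intervals was seen in 5 members (11.1%, background 2.64%), namely the 3 expansin-A15-like genes and 2 of the 3 XTH 30 genes. A fall in all 3 intervals was seen in 1 member, the XTH 23 gene LOC111391445 (background 2.71%). A fall to 21 WAF together with a rise after 26 WAF was seen in 13 members (28.9%, background 18.9%). A rise to 26 WAF followed by a fall was seen in 8 members (17.8%, background 5.71%). A fall both before 21 WAF and after 26 WAF was seen in 10 members (22.2%, background 7.93%), and the last 2 groups share genes.

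**Figure D3:**
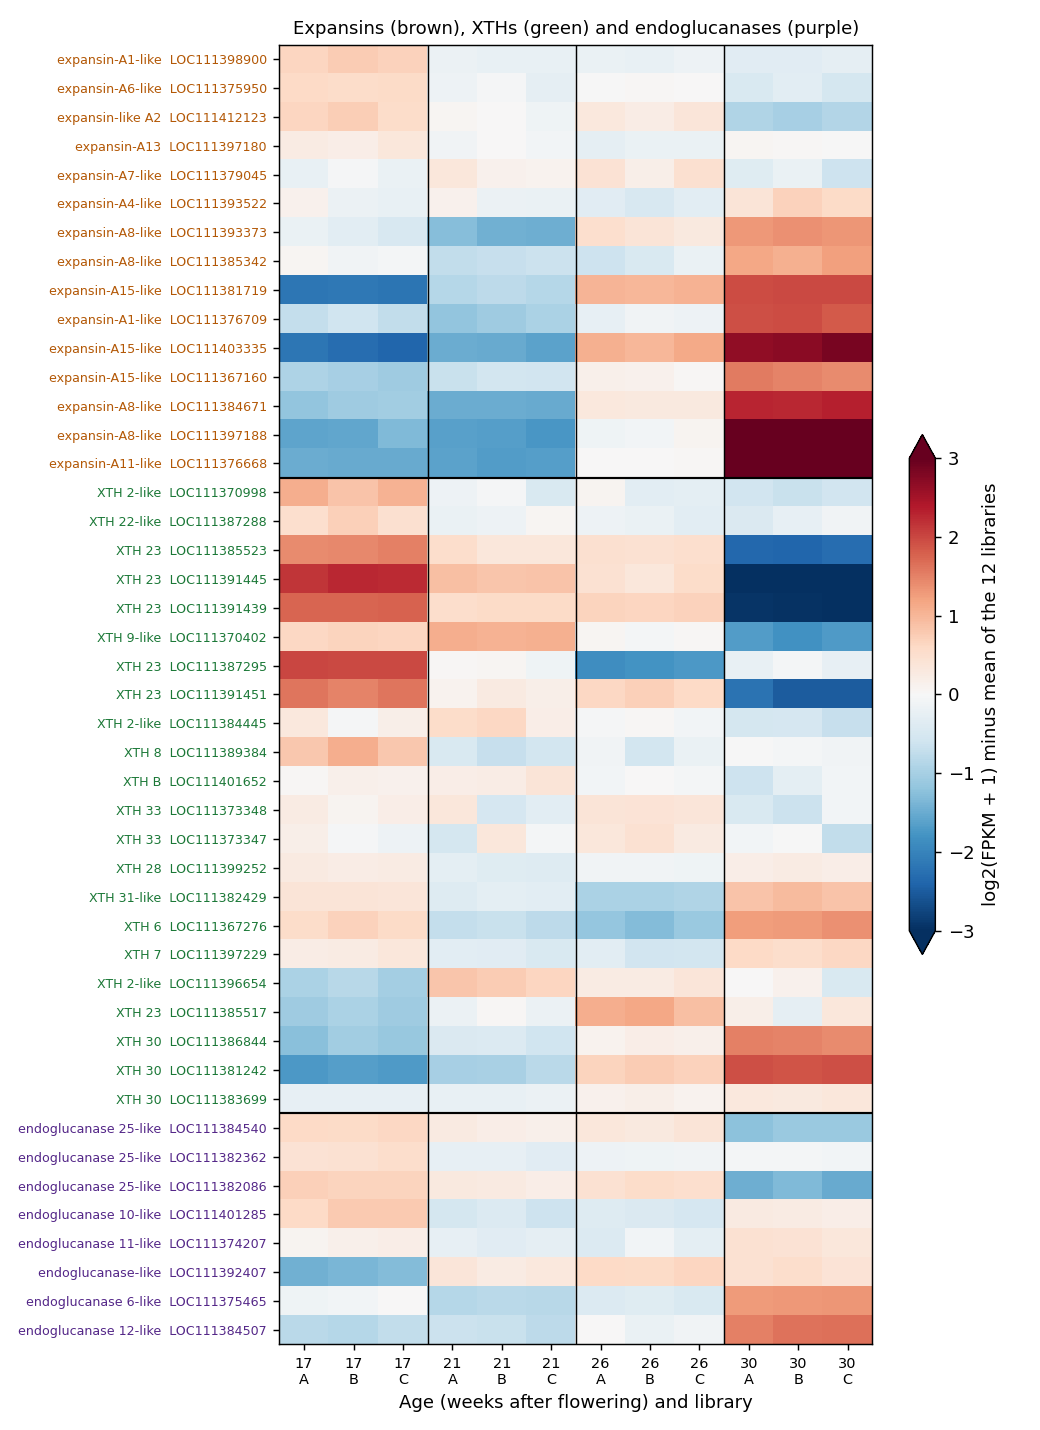
Log2(FPKM + 1) of each of the 45 members minus its mean over the 12 libraries (colour, from -3 in blue to 3 in red, stronger values drawn at the ends of the scale) by library (x axis, in order of fruit age). Rows are grouped into expansins (brown labels), XTHs (green) and endoglucanases (purple); most expansin rows are red at 30 WAF, whereas 4 XTH 23 rows are red at 17 WAF and blue at 30 WAF.

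Expansins of the A class (alpha-expansins, which are known to loosen cell walls) made up 14 of the 15, out of 30 expansin-A genes matched. None of the 6 expansin-B genes passed the filter, and the highest value of that class in any library was 0.61 FPKM. The other member, of 8 expansin-like genes, was an expansin-like A2. The most abundant expansin was the expansin-A15-like gene LOC111381719. Its libraries read 177, 180.2 and 175 FPKM at 17 WAF, 443, 461 and 439 FPKM at 21 WAF, 1611, 1603 and 1638 FPKM at 26 WAF, and 3109, 3139 and 3177 FPKM at 30 WAF. The libraries of each age lay above all those of the age before, with no overlap. The level at 30 WAF was 17.7-fold that at 17 WAF (log2 change 4.14, SE 0.0258, limma adjusted p = 4.5e-18).

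The other expansin-A15-like genes started low. LOC111403335 had 2.0, 1.78 and 1.62 FPKM at 17 WAF, 3.86, 3.78 and 3.49 FPKM at 21 WAF, 27.6, 26.3 and 29.0 FPKM at 26 WAF, and 85.3, 87.7 and 96.1 FPKM at 30 WAF. On the scale of log2(FPKM + 1) it held the highest change of the 45 members between 30 and 17 WAF, 5.02 (SE 0.0621, limma adjusted p = 8.8e-16). Each age lay above the one before. That rank depends on the added 1. As a plain ratio of means it was 49.8-fold higher, against 192-fold for LOC111376668 and 112-fold for LOC111397188, both below 1 FPKM at 17 WAF. LOC111367160 read 16.8, 15.9 and 15.3 FPKM at 17 WAF, 20.5, 22.3 and 21.9 FPKM at 21 WAF, 36.6, 36.3 and 34.0 FPKM at 26 WAF, and 98.3, 93.7 and 90.0 FPKM at 30 WAF (log2 change 2.48 for 30 against 17 WAF, limma adjusted p = 5.1e-14). LOC111403335 and LOC111367160 thus reached similar FPKM at 30 WAF from starting levels that differed. Reads shared between near-identical copies may have been split among them, so the separate levels of genes with 1 description are uncertain.

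**Figure D4:**
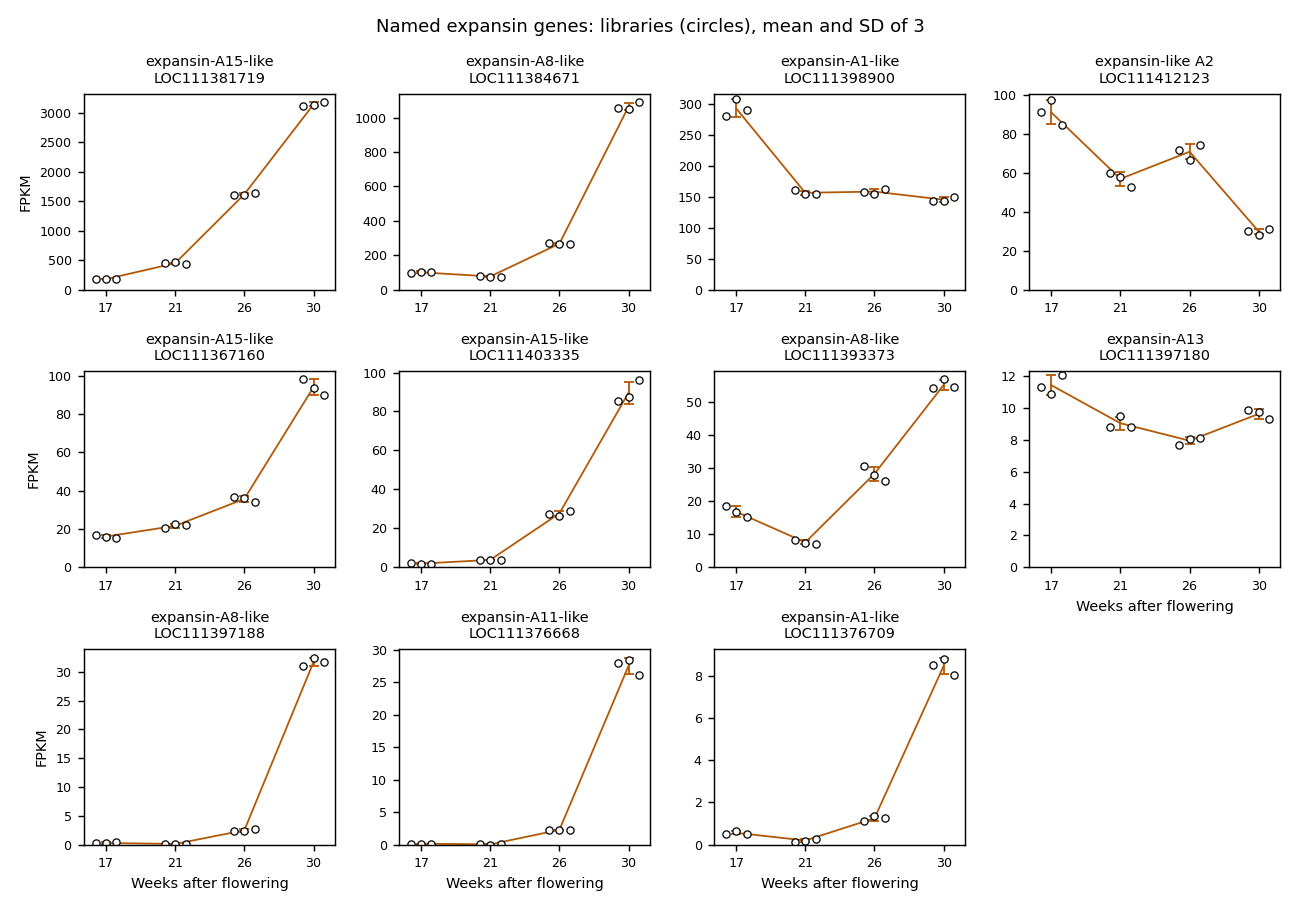
FPKM (y axis, linear, own scale per panel, from 0) by age in weeks after flowering (x axis) for the 11 named expansins. Circles are the 3 libraries of an age and lines join the means, with bars for the SD; 8 of the panels have their highest mean at 30 WAF, and expansin-A1-like LOC111398900, expansin-like A2 and expansin-A13 have theirs at 17 WAF.

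The more abundant expansin-A8-like genes dipped before they climbed. LOC111384671 read 94.2, 103 and 104 FPKM at 17 WAF, 77.0, 76.0 and 75.7 FPKM at 21 WAF, 271, 268 and 263 FPKM at 26 WAF, and 1055, 1050.2 and 1090.0 FPKM at 30 WAF. All libraries of 21 WAF lay below those of 17 WAF (log2 change -0.39, limma adjusted p = 7.6e-07), and those of 30 WAF lay 10.6-fold above 17 WAF in the mean (log2 change 3.39, SE 0.0352, limma adjusted p = 1.8e-16). LOC111393373 read 18.4, 16.8 and 15.1 FPKM at 17 WAF, 8.24, 7.17 and 7.15 FPKM at 21 WAF, 30.6, 28.1 and 26.2 FPKM at 26 WAF, and 54.3, 57.0 and 54.5 FPKM at 30 WAF. It too was lowest at 21 WAF without overlap (log2 change -1.06 for 21 against 17 WAF, limma adjusted p = 6.3e-08). Between 30 and 17 WAF its log2 change was 1.66 (limma adjusted p = 2.4e-10).

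Another pair of expansins was close to 0 until 26 WAF. The expansin-A8-like gene LOC111397188 read 0.200, 0.220 and 0.430 FPKM at 17 WAF, 0.160, 0.130 and 0.0700 FPKM at 21 WAF, 2.29, 2.40 and 2.77 FPKM at 26 WAF, and 30.9, 32.4 and 31.7 FPKM at 30 WAF. The expansin-A11-like gene LOC111376668 read 0.160, 0.140 and 0.130 FPKM at 17 WAF, 0.0700, 0.0100 and 0.0400 FPKM at 21 WAF, 2.25, 2.26 and 2.31 FPKM at 26 WAF, and 28.0, 28.5 and 26.2 FPKM at 30 WAF. In both, the libraries of 26 WAF lay above those of 21 WAF, and those of 30 WAF above those of 26 WAF. The log2 change between 30 and 26 WAF was 3.23 in LOC111397188 (SE 0.0815, limma adjusted p = 1.8e-12), the highest of the members in that comparison. It was 3.12 in LOC111376668 (SE 0.0616, limma adjusted p = 1.7e-13). Between 21 and 17 WAF neither passed (log2 change -0.19 in LOC111397188, limma adjusted p = 0.059, and -0.14 in LOC111376668, adjusted p = 0.074), but with a pseudocount of 0.1 both did (adjusted p = 0.0077 and 0.00093).

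The expansin-A1-like genes took opposite courses. LOC111398900 read 279.9, 308 and 289.9 FPKM at 17 WAF, 160.2, 154 and 154 FPKM at 21 WAF, 158, 154 and 163 FPKM at 26 WAF, and 143, 143 and 149.5 FPKM at 30 WAF. It was the most abundant expansin at 17 WAF, and nearly the whole fall lay before 21 WAF (log2 change -0.90 for 21 against 17 WAF, limma adjusted p = 4.7e-10). The libraries of 26 and 21 WAF overlapped. LOC111376709 read 0.520, 0.650 and 0.510 FPKM at 17 WAF, 0.110, 0.190 and 0.290 FPKM at 21 WAF, 1.13, 1.35 and 1.27 FPKM at 26 WAF, and 8.53, 8.81 and 8.05 FPKM at 30 WAF. It rose by 2.60 on the log2 scale between 30 and 17 WAF (SE 0.0815, limma adjusted p = 6.9e-12), yet stayed far below LOC111398900 in every library.

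The expansin-like A2 gene LOC111412123, of a class for which no wall-loosening activity has been established, fell. Its libraries read 91.2, 97.2 and 84.8 FPKM at 17 WAF, 60.1, 57.8 and 52.9 FPKM at 21 WAF, 71.5, 66.8 and 74.2 FPKM at 26 WAF, and 30.3, 28.3 and 30.9 FPKM at 30 WAF. The ages did not overlap, and the level at 17 WAF was 3.05-fold that at 30 WAF (log2 change -1.58 for 30 against 17 WAF, limma adjusted p = 5.1e-11). Expansin-A13 (LOC111397180) moved least among the named expansins, with means of 11.4 ± 0.611, 9.05 ± 0.419, 7.95 ± 0.210 and 9.64 ± 0.308 FPKM from the first to the last age (SD, n = 3 each). The 4 remaining expansins had means below 5 FPKM at every age and are given only to account for each member. They were expansin-A8-like LOC111385342 with a mean of 2.88 FPKM at 30 WAF and 0.717 FPKM at 17 WAF, expansin-A4-like LOC111393522 with 1.38 and 0.537 FPKM, expansin-A6-like LOC111375950 with 0.423 and 1.85 FPKM, and expansin-A7-like LOC111379045 with 0.310 and 0.543 FPKM. Of these the first and second rose, the third fell, and expansin-A7-like did not pass between 30 and 17 WAF (limma, adjusted p = 0.1). The first and second reached 1 FPKM only in libraries of 30 WAF, and the third only in those of 17 WAF. The filter thus fixed the direction in which these could be called.

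Among XTHs the largest description group was XTH 23 with 6 genes. In the file's KEGG column these 6 and the XTH 22-like gene LOC111387288 are assigned to TCH4, the entry named for a touch- and brassinosteroid-responsive XTH of Arabidopsis. Of these 7 genes 6 (85.7%) were lower and 1 (14.3%) was higher at 30 than at 17 WAF, with a median log2 change of -3.80. Of the other 15 XTHs 7 (46.7%) were higher, 6 (40%) lower and 2 did not pass, with a median of -0.02. Over all genes tested 34.9% were higher and 38.9% lower, and the median was -0.03. This split by KEGG entry was not among the planned lists.

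The XTH 23 genes with the highest levels were high early. LOC111391445 read 111, 122 and 119 FPKM at 17 WAF, 46.7, 44.2 and 45.1 FPKM at 21 WAF, 33.8, 31.1 and 36.4 FPKM at 26 WAF, and 1.28, 1.49 and 0.910 FPKM at 30 WAF. LOC111391439 read 66.7, 67.4 and 67.8 FPKM at 17 WAF, 28.4, 29.2 and 29.2 FPKM at 21 WAF, 31.1, 30.5 and 31.8 FPKM at 26 WAF, and 1.62, 1.58 and 1.54 FPKM at 30 WAF. LOC111385523 read 58.2, 59.6 and 62.6 FPKM at 17 WAF, 31.3, 27.0 and 27.1 FPKM at 21 WAF, 30.0, 29.7 and 30.4 FPKM at 26 WAF, and 3.33, 3.31 and 3.56 FPKM at 30 WAF. All 3 had a first fall before 21 WAF, smaller changes to 26 WAF and a further fall before 30 WAF, and no library of 30 WAF overlapped any earlier one. LOC111391451 followed the same outline at a lower level, with means of 24.9 ± 1.35, 8.97 ± 0.581, 12.7 ± 0.644 and 0.663 ± 0.197 FPKM (SD, n = 3 each).

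The fall after 26 WAF was larger than that before 21 WAF on the log2 scale in all 4 of these genes. Between 30 and 26 WAF LOC111391445 fell by 3.97 (SE 0.0825, limma adjusted p = 2.8e-13), LOC111391439 by 3.64 (adjusted p = 2.6e-16), LOC111391451 by 3.04 (adjusted p = 2.4e-12) and LOC111385523 by 2.82 (adjusted p = 1.1e-13). Between 21 and 17 WAF the same genes fell by 1.35, 1.19, 1.38 and 1.06. Between 26 and 21 WAF they parted. LOC111391445 fell by a further 0.42 (limma adjusted p = 0.00088), LOC111391451 rose by 0.46 (adjusted p = 0.00033), and the log2 change of LOC111385523 was 0.08 (adjusted p = 0.24), which is called with median-of-ratios scaling (adjusted p = 0.049) and without library A of 21 WAF (adjusted p = 0.015). LOC111391439 rose by 0.10 (adjusted p = 0.018), a call that is lost without library A of 21 WAF (adjusted p = 0.064) or library C of 26 WAF (adjusted p = 0.071).

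A pair of XTH 23 genes departed from that course. LOC111387295 read 43.9, 43.6 and 43.5 FPKM at 17 WAF, 10.5, 10.7 and 9.34 FPKM at 21 WAF, 2.09, 2.23 and 2.39 FPKM at 26 WAF, and 8.58, 9.90 and 8.50 FPKM at 30 WAF. It was lowest at 26 WAF and rose by 1.62 on the log2 scale to 30 WAF (SE 0.0636, limma adjusted p = 1.5e-10), while the 4 genes above fell. LOC111385517 read 0.430, 0.570 and 0.440 FPKM at 17 WAF, 1.67, 2.07 and 1.66 FPKM at 21 WAF, 5.42, 5.76 and 4.63 FPKM at 26 WAF, and 2.40, 1.48 and 2.80 FPKM at 30 WAF. It was highest at 26 WAF with no overlap, and it alone of the 6 was higher at 30 than at 17 WAF (log2 change 1.10, SE 0.136, limma adjusted p = 8.2e-06). The XTH 22-like gene LOC111387288 was low, with means of 1.60, 0.633, 0.493 and 0.467 FPKM. It reached 1 FPKM only in libraries of 17 WAF, so after the filter it could only be called lower at 30 WAF.

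**Figure D5:**
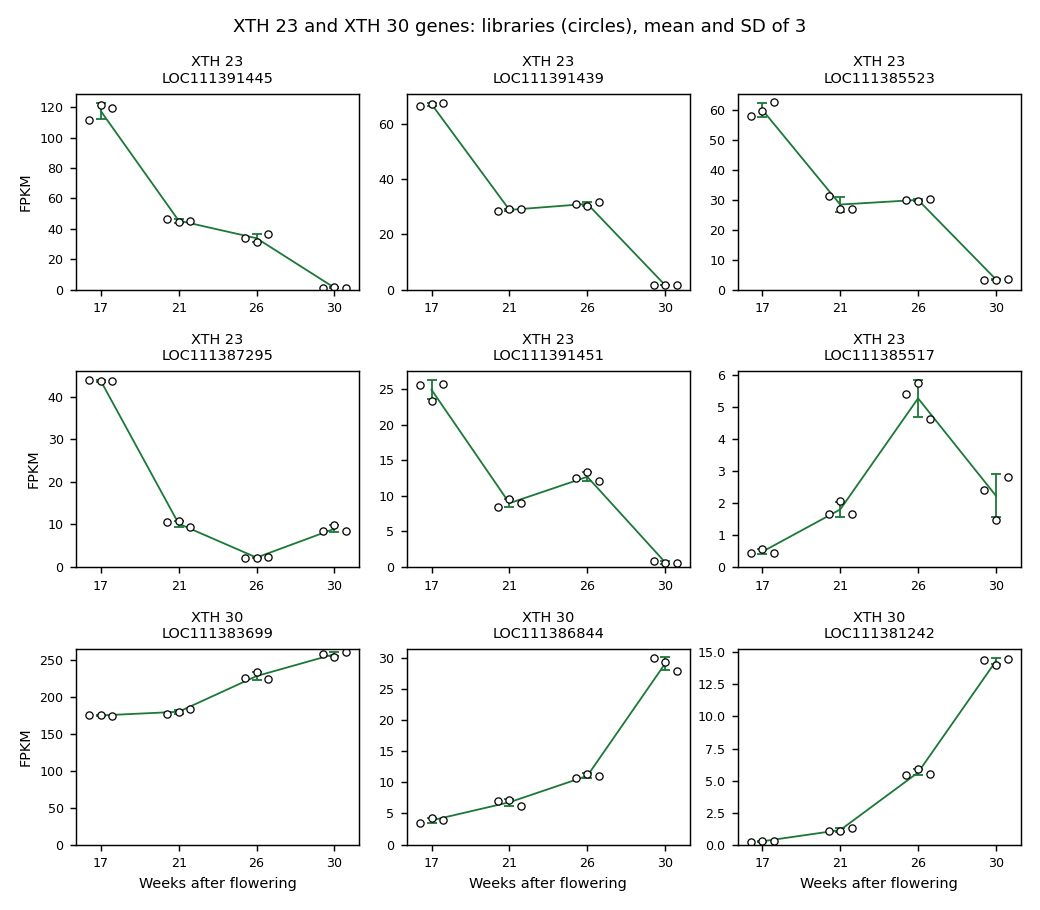
FPKM (y axis, linear, own scale per panel, from 0) by age in weeks after flowering (x axis) for the 6 XTH 23 and the 3 XTH 30 genes. Circles are the 3 libraries of an age and lines join the means, with bars for the SD; 5 of the XTH 23 genes are highest at 17 WAF and LOC111385517 at 26 WAF, whereas each XTH 30 gene is highest at 30 WAF.

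The XTH 30 genes rose. LOC111383699, the most abundant XTH, read 175, 176 and 174 FPKM at 17 WAF, 178, 179 and 183 FPKM at 21 WAF, 226, 234 and 225 FPKM at 26 WAF, and 259, 255 and 261 FPKM at 30 WAF. The level at 30 WAF was 1.47-fold that at 17 WAF (log2 change 0.56, SE 0.0247, limma adjusted p = 2.5e-10). LOC111386844 read 3.51, 4.22 and 3.95 FPKM at 17 WAF, 7.07, 7.20 and 6.14 FPKM at 21 WAF, 10.6, 11.4 and 11.1 FPKM at 26 WAF, and 30.0, 29.3 and 27.9 FPKM at 30 WAF. LOC111381242 read 0.230, 0.290 and 0.260 FPKM at 17 WAF, 1.04, 1.06 and 1.31 FPKM at 21 WAF, 5.47, 5.90 and 5.52 FPKM at 26 WAF, and 14.4, 14.0 and 14.5 FPKM at 30 WAF. In all 3 genes each age lay above the one before without overlap, although the first step of LOC111383699, a log2 change of 0.04, did not pass (limma adjusted p = 0.18) except with median-of-ratios scaling (0.12, adjusted p = 0.001). The rise of LOC111381242 between 30 and 17 WAF, 3.60 on the log2 scale (SE 0.0645, limma adjusted p = 2.4e-14), was the highest of the XTHs, and LOC111386844 rose by 2.62 (adjusted p = 6.5e-13).

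The XTH 9-like gene LOC111370402 peaked at 21 WAF. It read 64.1, 66.8 and 65.4 FPKM at 17 WAF, 89.8, 87.3 and 87.5 FPKM at 21 WAF, 43.3, 39.9 and 42.9 FPKM at 26 WAF, and 12.3, 11.1 and 12.1 FPKM at 30 WAF. No 2 ages overlapped, and the log2 change was 0.42 between 21 and 17 WAF (limma adjusted p = 1.8e-06) and -1.74 between 30 and 26 WAF (adjusted p = 1.1e-12). In the RefSeq gene order of assembly O_europaea_v1 its next gene is another XTH 9-like, LOC111370403, which averaged 0.0275 FPKM over the 12 libraries, against 51.9 FPKM for LOC111370402. The genome build behind the deposited values is not given in the sources used here, and the assembly served only for names and neighbours.

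XTH 31-like and XTH 6 shared a low point at 26 WAF. In Arabidopsis XTH31 is known for xyloglucan hydrolase activity. The XTH 31-like gene LOC111382429 read 42.4, 42.3 and 41.9 FPKM at 17 WAF, 24.6, 26.0 and 25.9 FPKM at 21 WAF, 16.2, 16.3 and 16.7 FPKM at 26 WAF, and 59.3, 63.0 and 59.0 FPKM at 30 WAF. The XTH 6 gene LOC111367276 read 10.03, 11.2 and 10.3 FPKM at 17 WAF, 3.63, 3.78 and 3.42 FPKM at 21 WAF, 2.41, 2.07 and 2.50 FPKM at 26 WAF, and 16.9, 17.4 and 18.6 FPKM at 30 WAF. Both fell in the first and second intervals and ended above their level at 17 WAF without overlap. Between 30 and 26 WAF XTH 6 rose by 2.49 on the log2 scale (SE 0.0638, limma adjusted p = 2.1e-12), the highest rise of an XTH in that interval, and XTH 31-like rose by 1.82 (adjusted p = 1.3e-13).

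The genes described as XTH 2-like were low and did not share a course. LOC111396654 was highest at 21 WAF, with 5.19, 4.88 and 4.43 FPKM against 0.800, 0.930 and 0.700 FPKM at 17 WAF (log2 change 1.69, limma adjusted p = 1.2e-07). LOC111370998 had 0.890, 1.05 and 0.540 FPKM at 21 WAF against 3.50, 2.85 and 3.33 FPKM at 17 WAF (log2 change -1.22, limma adjusted p = 3.3e-06). LOC111384445 stayed at or below 1.49 FPKM in every library. The first was thus higher and the second lower at 21 WAF, with no overlap in either. The other 6 XTHs lay outside the rule for named genes and are given to account for each member. XTH 28 (LOC111399252) averaged 14.6 FPKM at 30 WAF and 14.9 FPKM at 17 WAF, with 9.53 FPKM at 21 WAF, and did not pass between 30 and 17 WAF (limma, adjusted p = 0.6). XTH B (LOC111401652) averaged 2.67 FPKM at 30 WAF and 3.90 FPKM at 17 WAF, XTH 8 (LOC111389384) 2.22 and 5.30 FPKM, and XTH 7 (LOC111397229) 1.54 and 1.06 FPKM. The XTH 33 genes LOC111373347 and LOC111373348 never exceeded 1.29 FPKM and were listed at 0 in 1 library of 30 WAF each.

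The endoglucanases with the highest means over the 12 libraries were 3 genes described as endoglucanase 25-like, although at 30 WAF LOC111382086 lay below 4 endoglucanases with other descriptions. Endoglucanase 25 of Arabidopsis is KORRIGAN, a membrane-bound enzyme needed for cellulose synthesis rather than known for ripening. LOC111382362 read 97.8, 99.5 and 105 FPKM at 17 WAF, 61.1, 61.0 and 56.4 FPKM at 21 WAF, 65.4, 65.7 and 67.4 FPKM at 26 WAF, and 69.0, 69.1 and 67.9 FPKM at 30 WAF. LOC111384540 read 101, 101 and 104 FPKM at 17 WAF, 79.95, 76.7 and 74.5 FPKM at 21 WAF, 85.1, 81.8 and 87.2 FPKM at 26 WAF, and 28.1, 30.2 and 30.3 FPKM at 30 WAF. LOC111382086 read 53.0, 50.9 and 51.0 FPKM at 17 WAF, 39.1, 38.5 and 36.6 FPKM at 21 WAF, 43.9, 47.6 and 45.9 FPKM at 26 WAF, and 10.9, 12.1 and 10.6 FPKM at 30 WAF. All 3 fell to 21 WAF and rose slightly to 26 WAF, and then they parted.

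Between 30 and 26 WAF LOC111382086 fell by 1.94 on the log2 scale (SE 0.0484, limma adjusted p = 1.6e-12), the largest fall of an endoglucanase. LOC111384540 fell by 1.49 (SE 0.0386, limma adjusted p = 2.3e-12). The log2 change of LOC111382362 was 0.05 (limma adjusted p = 0.21), and it is -0.05 with median-of-ratios scaling. At 17 WAF LOC111382362 and LOC111384540 overlapped in their libraries, whereas at 30 WAF every library of LOC111382362 lay above every library of LOC111384540.

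The remaining endoglucanases moved the other way late or early. Endoglucanase 6-like LOC111375465, whose Arabidopsis namesake belongs to a class with a carbohydrate-binding module, read 25.8, 26.8 and 28.3 FPKM at 17 WAF, 15.1, 15.6 and 15.5 FPKM at 21 WAF, 21.1, 21.7 and 20.4 FPKM at 26 WAF, and 70.0, 70.7 and 72.6 FPKM at 30 WAF. It dipped at 21 WAF and had its highest libraries at 30 WAF without overlap (log2 change 1.71 for 30 against 26 WAF, SE 0.0388, limma adjusted p = 6.3e-13). Endoglucanase 12-like LOC111384507 read 2.82, 2.65 and 2.98 FPKM at 17 WAF, 3.24, 3.18 and 2.89 FPKM at 21 WAF, 5.70, 4.82 and 5.14 FPKM at 26 WAF, and 18.0, 19.6 and 19.9 FPKM at 30 WAF. Its libraries of 21 and 17 WAF overlapped, and between 30 and 17 WAF it rose by 2.40 on the log2 scale (SE 0.0661, limma adjusted p = 1.8e-12), the highest rise of the family.

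The gene described as endoglucanase-like, LOC111392407, changed early. It read 5.20, 5.55 and 5.82 FPKM at 17 WAF, 20.6, 19.0 and 20.1 FPKM at 21 WAF, 24.6, 24.2 and 25.2 FPKM at 26 WAF, and 22.0, 23.2 and 21.6 FPKM at 30 WAF. It was the only endoglucanase of the 8 to rise between 17 and 21 WAF (log2 change 1.68, SE 0.0467, limma adjusted p = 1.3e-11). Its fall after 26 WAF, with a log2 change of -0.14 (limma adjusted p = 0.017), does not pass without library C of 26 WAF (adjusted p = 0.061) or library C of 30 WAF (adjusted p = 0.062). The best protein match recorded for it in the file is an uncharacterized protein, so its family is less sure than that of the others. Endoglucanase 10-like LOC111401285 averaged 19.5 ± 1.47, 7.68 ± 0.688, 8.20 ± 0.361 and 13.7 ± 0.367 FPKM from the first to the last age (SD, n = 3 each), and its fall to 21 WAF was the largest of the family in that interval (log2 change -1.24, SE 0.065, limma adjusted p = 4.5e-09). Endoglucanase 11-like LOC111374207 lay just inside the filter, with 1.10 FPKM at 30 WAF and 0.740 FPKM at 17 WAF. It reached 1 FPKM only in libraries of 30 WAF, so after the filter it could only be called higher there. In the third-highest of its libraries, on which the filter turns, it had 1.0 FPKM, and the nearest gene outside, the XTH 2-like LOC111370996, had 0.99 FPKM.

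Genes that share a description were contrasted by their log2 ratio in each library, since both genes of a ratio come from the same library and any scaling of that library drops out apart from the added 1. Among the 45 members 26 shared 1 of 8 descriptions, which gave 35 pairs. An exact permutation test over the 369600 assignments of the 12 libraries to the 4 ages asked whether the ratio varied with age, with Benjamini-Hochberg adjustment over the 35 pairs. In 33 pairs the adjusted p was under 0.05, and 21 pairs had the smallest p the test can give, 6.5e-05 (adjusted 0.00011). The 2 that did not pass were XTH 23 LOC111385523 over LOC111391451 (exact permutation test, adjusted p = 0.06) and XTH 33 LOC111373347 over LOC111373348 (exact permutation test, adjusted p = 0.9). By mean FPKM at each age, the order of the pair's levels was not the same at every age in 17 pairs, and in 8 pairs the genes had their highest mean at different ages. Any reversal of means was counted, however small, and the XTH 33 pair is among the 17. At 17 WAF LOC111396654 and LOC111384445 averaged 0.810 and 0.817 FPKM. LOC111391445 and LOC111391439 changed order only at 30 WAF, with means of 1.23 and 1.58 FPKM. Of the 35 pairs 15 come from the 6 XTH 23 genes, so the pairs are not independent. Pairs of genes with different descriptions were not tested, and 89.9% of all genes tested varied with age. The counts therefore do not show that genes of 1 description differ more than other genes.

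The contrasts differed in kind between descriptions. By mean FPKM all 3 expansin-A15-like pairs kept their order at every age, although the libraries of LOC111367160 and LOC111403335 overlapped at 30 WAF, where library C had the reverse order. LOC111381719 over LOC111367160 had a log2 ratio of 5.05 at 30 WAF against 3.40 at 17 WAF, and LOC111367160 over LOC111403335 had 0.07 at 30 WAF against 2.60 at 17 WAF (exact permutation test, adjusted p = 0.00011 for each). Expansin-A1-like LOC111398900 over LOC111376709 had 3.95 at 30 WAF against 7.56 at 17 WAF (adjusted p = 0.00011, exact permutation test). Of the 6 expansin-A8-like pairs 1 changed order, LOC111397188 over LOC111385342, with 3.08 at 30 WAF against -0.42 at 17 WAF. Among the 15 XTH 23 pairs 11 changed order. The widest change was in LOC111391445 over LOC111385517, with a log2 ratio of -0.52 at 30 WAF against 6.32 at 17 WAF (exact permutation test, adjusted p = 0.00011). The 3 XTH 30 pairs kept their order while drawing closer, and LOC111383699 over LOC111381242 had 4.08 at 30 WAF against 7.13 at 17 WAF. Among the endoglucanase 25-like genes LOC111382362 over LOC111384540 had 1.19 at 30 WAF against -0.02 at 17 WAF (exact permutation test, adjusted p = 0.00045). LOC111384540 over LOC111382086 moved less, with 1.32 at 30 WAF against 0.97 at 17 WAF (adjusted p = 0.0013, exact permutation test). These p-values speak of the deposited values, in which reads of near-identical copies may have been divided.

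Other genes that act on xyloglucan were counted beside the families. Of 21 genes tested for xyloglucan synthesis and trimming (glycosyltransferases that build the chain and its side chains, and alpha-xylosidases that trim it) 3 (14.3%) rose and 12 (57.1%) fell between 17 and 30 WAF, against a background of 34.9% and 38.9%, with a median log2 change of -0.49. The sum of all 30 matched genes of this list, tested or not, was 198 to 203 FPKM at 30 WAF, against 301 to 306 FPKM at 17 WAF. Named after their values were seen, the xyloglucan glycosyltransferase 12 gene LOC111371769 had the largest fall and a galactosyltransferase was one of those that rose. LOC111371769 averaged 3.18 FPKM at 30 WAF against 24.9 FPKM at 17 WAF (log2 change -2.63, SE 0.0567, limma adjusted p = 1.5e-13). The XLT2-like galactosyltransferase LOC111403918 had 43.6 FPKM at 30 WAF against 23.2 FPKM at 17 WAF (log2 change 0.88, limma adjusted p = 2e-09).

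Marker genes of other fruit tissues were summed in each library, since the samples are bulk flesh. Epidermis and wax genes (13 of 23 tested, none listed at 0 in all libraries) summed to 268 to 275 FPKM at 17 WAF, 236 to 243 FPKM at 21 WAF, 338 to 362 FPKM at 26 WAF and 799 to 808 FPKM at 30 WAF. Of the 13 tested 12 rose between 26 and 30 WAF and none fell, against a background of 42% of genes higher and 24.3% lower, in the interval in which 11 expansins rose. Between 21 and 26 WAF 4 rose and 5 fell (background 23.2% and 32.9%), whereas 9 expansins rose and 1 fell. Between 17 and 21 WAF 2 rose and 6 fell (background 22.2% and 35.9%), and 4 expansins rose and 8 fell. Most of the epidermis sum was the wax gene ECERIFERUM 3-like LOC111385303, with means of 167, 172, 264 and 567 FPKM. That gene was singled out after its values were seen, and the part of the epidermis in the expansin rise was not tested. Seed genes (4 of 11 tested, 2 listed at 0 in all libraries) summed to 72.1 to 78.4 FPKM at 30 WAF against 169.9 to 174 FPKM at 17 WAF. All 4 tested were lower at 30 WAF, against a background of 38.9% of genes lower. Most of the seed sum was the vicilin-like gene LOC111393661, with means of 64.7 FPKM at 30 WAF and 133 FPKM at 17 WAF. It too was singled out after its values were seen, as were the seed genes named next. The 2S sulfur-rich gene LOC111397324 averaged 6.97 FPKM at 30 WAF and 32.8 FPKM at 17 WAF. The 11S globulin gene LOC111391654, which did not pass the filter, never exceeded 0.70 FPKM. The part of seed in the fall of the XTH 23 and endoglucanase 25-like genes was not tested. Genes of the stone and vessels (2 of 25 tested, 3 listed at 0 in all libraries) summed to 13.2 to 15.9 FPKM at 30 WAF against 15.5 to 18.2 FPKM at 17 WAF. The 6 desaturase genes of oil synthesis summed to 2008 to 2080 FPKM at 30 WAF and 2457 to 2494 FPKM at 17 WAF. Most of that sum was LOC111375456, with means of 1567 FPKM at 30 WAF and 1911 FPKM at 17 WAF. No marker particular to mesocarp was among the lists, so these values do not check the labelled tissue.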

How the data were processed

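The deposited table gives FPKM as computed by the authors, one value per gene and library with 2 decimals. Per the submitters' processing notes the tools were StringTie 1.0.4, RSEM, Bowtie2 2.2.5 and HISAT2 2.0.4, whose roles are not stated. Per the labels' protocols, RNA was taken up with a CTAB method and a DNase-treated column, and sequencing was on DNBseq. Build, annotation and strandedness were not given in the sources used here. Antisense or overlapping genes may therefore share reads. All 12 columns were matched to samples by name. FPKM are not counts, and no count test was used.

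Members and lists were chosen with earlier results of these data known. The 26131 genes with 1 FPKM or more in 3 or more libraries were fitted in limma 3.58.1 (R 4.3.3). The fit took log2 of FPKM plus a pseudocount of 1, a mean per age over all 12 libraries, and empirical Bayes moderation with an abundance trend. Tests were 2-sided with Benjamini-Hochberg adjustment over all genes tested, at a threshold of 0.05. Other steps used data.table (version 1.17.8), Python 3.11.15, numpy 2.4.6, pandas 2.3.3 and matplotlib 3.10.9. Pairs are members that share a description once words such as "probable" and "-like" are dropped, since no protein sequences were at hand, and sequences are not shown. The rule for named members gave 33. They are, per family, the 4 with the highest mean, the largest called rise and fall per comparison where the higher age reached 5 FPKM, every member with 20 FPKM at an age, and pairs of one description with different peak ages. RefSeq's gene list for assembly O_europaea_v1 held all 128 matched genes under the same ID and symbol. The procedure was tested on simulated data. The alternatives tried were another pseudocount (0.1), no filter or a stricter one (mean of 5 FPKM), scaling to TPM or by median of ratios, a block for the replicate letter, and leaving out single libraries.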

Additional observations from a re-analysis of the deposited data

How the results depend on the processing

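No member that was called turned direction under any alternative, and 625 of 640 alternative counts lay within 1.5 times the reported ones. A mean FPKM of at least 5 leaves 29 members in the fit, so counts drop with them: 29 changed over the 4 ages, 13 were lower for 30 with 17 WAF, and 10 were lower for 30 with 26 WAF. With that filter XTHs had 5 higher and 6 lower for 30 with 17 WAF, 3 higher for 21 with 17 WAF, 5 lower for 26 with 21 WAF and 5 lower for 30 with 26 WAF, and expansins had 5 lower for 21 with 17 WAF and 2 lower for 30 with 26 WAF. All genes in that fit numbered 16697. Of these 6786 were higher and 6568 lower for 30 with 17 WAF, and 4479 were higher and 6903 lower for 21 with 17 WAF. Lower genes numbered 5905 for 26 with 21 WAF and 4547 for 30 with 26 WAF. For the F test under that filter no background is given. The single expansin lower for 26 with 21 WAF became 2 with a pseudocount of 0.1, 0 with median-of-ratios scaling and 0 to 2 when a library was left out, and the cause was not tested. Small log2 changes that were not called reversed. LOC111383699 for 21 with 17 WAF was -0.0193 with TPM scaling, and LOC111382362 for 30 with 26 WAF was -0.0504 with median-of-ratios scaling. When a library was left out, LOC111370998 for 26 with 21 WAF ranged over -0.0766 to 0.1366 and LOC111398900 over -0.0041 to 0.0377. The causes of these reversals were not tested. Of the pairs, 33 to 34 passed when a library was left out, an alternative chosen after seeing the data, and 34 with a pseudocount of 0.1. No shared effect of the letters A, B and C was seen. Deviations of libraries with the same letter correlated by -0.0861 to 0.0742, and those with different letters by -0.148 to 0.15. These correlations cannot tell whether a letter marks the same tree at each age. With the letter as a replicate block 22 members were higher and 20 lower for 30 with 17 WAF, as without it, and among all members and comparisons only LOC111379045 for 21 with 17 WAF changed its call. Read numbers are unknown, so the counting precision of low members cannot be stated.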

Other observations

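Other wall genes also moved over the same 12 libraries. The EXORDIUM family is named for an Arabidopsis gene that responds to brassinosteroid and promotes cell expansion, and 14 genes carried its name, of which 13 passed the filter. Of these 1 was higher and 11 were lower at 30 WAF compared with 17 WAF, against a background of 34.9% and 38.9% of genes, with a median log2 change of -1.84, beside -0.03 over all genes tested. The sum of the 14 genes was 197 to 225 FPKM at 30 WAF, against 2534.5 to 2599 FPKM at 17 WAF. The 6 genes described only as "protein EXORDIUM-like", a group that was not among the planned lists, were all lower (median log2 change -4.25). The most abundant of them, LOC111389936, had 44.0, 41.4 and 40.7 FPKM at 30 WAF, against 1018, 1007 and 1003 FPKM at 17 WAF (log2 change -4.55, SE 0.029, limma adjusted p = 4.5e-18). It was named after its values were seen, as was the xylosidase below. All 6 fell between 26 and 30 WAF (median -3.53), against a background of 24.3% of genes lower. In that interval 4 of the XTH 23 genes had their larger fall.

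Enzymes that cut other hemicelluloses were 17 genes tested of 23 matched, of which 7 (41.2%) were higher and 6 (35.3%) lower at 30 WAF (median log2 change -0.003), close to the background of 34.9% and 38.9% of genes. The sum of the 23 matched genes was nonetheless 905 to 935 FPKM at 30 WAF, against 120.2 to 124 FPKM at 17 WAF. Most of it was the beta-D-xylosidase 1-like gene LOC111371327, of a class of enzymes that release xylose from xylan. It read 45.6, 49.1 and 45.9 FPKM at 17 WAF, 404, 396 and 384 FPKM at 21 WAF, 916, 911 and 944 FPKM at 26 WAF, and 805, 816 and 833 FPKM at 30 WAF. Between 30 and 17 WAF its log2 change was 4.10 (SE 0.0325, limma adjusted p = 2.3e-17), and its steepest step, 3.05, lay between 21 and 17 WAF. None of its ages overlapped.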
